A study of Mus musculus with 466 samples.

Results

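The depot labelled perirenal adipose tissue was compared between obese male C57BL/6J mice killed after 21 days of caloric restriction and mice killed at day 0 of the restriction. The arrays were chosen by their titles, which gave 12 arrays at day 21 and 12 at day 0, out of 80 arrays of this depot and 466 arrays in the whole series. Each array came from 1 mouse, and the ID of each mouse starts with J or N, with 6 mice of each letter on both days. What the letter stands for is not given in the labels, and it entered the comparison as a term. The labels give neither the age of the mice nor the degree of restriction. All mice were described as obese at the start, and every mouse killed later than day 0 had been restricted, so that ageing cannot be separated from restriction here. The series text lists days up to 42, while the title and labels also hold day 60. The other days of the depot, with 5 to 12 arrays each, entered the fit to estimate the spread, except for 1 day 3 array whose ID has no letter, which left 79 of 80 arrays.

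Perirenal fat surrounds the kidney and lies next to the adrenal gland. White adipocytes store triglyceride and secrete adipokines such as leptin and adiponectin, and in rodents the perirenal depot also holds adipocytes with brown fat features. In obesity, fat depots take up macrophages and other immune cells, make acute phase proteins such as serum amyloid A, and contain dividing progenitor and immune cells. During energy restriction, adipocytes release fatty acids and shrink. In tissue RNA, fewer cells of a type and less RNA per cell cannot be told apart.

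The labelled tissue was checked against marker genes. Summed intensity of 7 adipocyte markers varied little, with a median of 101 and a maximum of 103 on day 21 arrays and a median of 99.5 and a maximum of 101 on day 0 arrays. Markers of brown adipocytes varied widely between arrays, with sums of 8.78 to 45.2 at day 21 and 10.8 to 47.8 at day 0. Ucp1, which lets brown adipocytes produce heat, had a lowest, median and highest intensity of 1.51, 11.6 and 15.1 at day 21 and 1.36, 13.2 and 15.1 at day 0. Many arrays also carried RNA typical of neighbouring organs. The sum of 13 adrenal markers exceeded 1.5 times the depot median on 4 arrays at day 21, with a maximum of 62.5, and on 5 arrays at day 0, with a maximum of 59.4. The sum of 11 kidney markers did so on 4 arrays at day 21 and 3 at day 0, with maxima of 10.4 and 4.67. The muscle sum did so on 1 array at day 21 (22.6, mouse N3) and 1 at day 0 (56.3, mouse J17). In total 7 arrays at day 21 and 6 at day 0 were high in at least 1 of these lists. Over all days of the depot 45 arrays were high. Results that change without high arrays are given both ways. A fit without them rests on fewer arrays and has less power. How far this accounts for calls lost in it was not tested. None of the 9 kidney, 12 adrenal or 12 muscle genes tested passed the test between the days, and their median log2 changes were 0.34, -0.30 and -0.16. Over all genes tested, 3.36% passed.

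**Figure D1:**
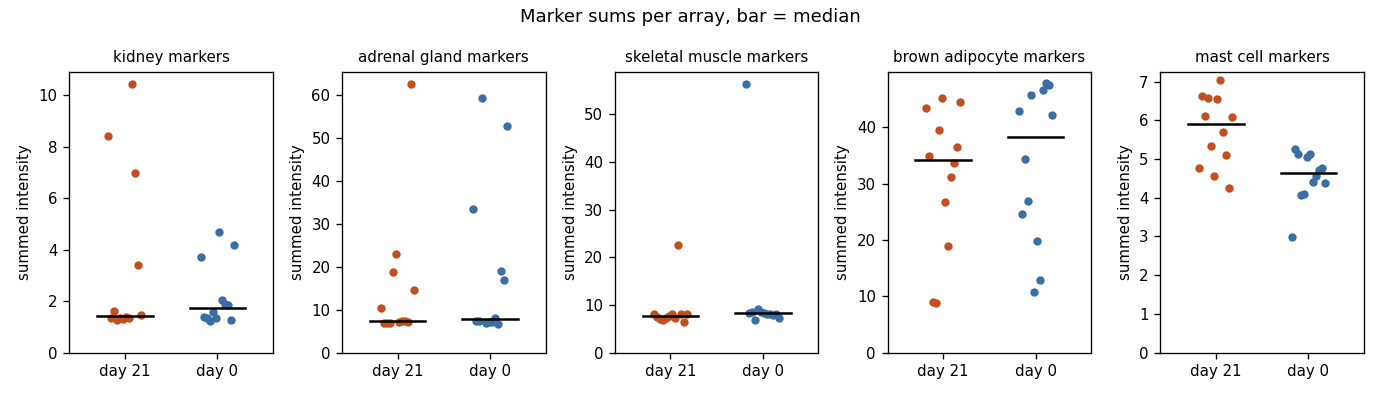
Summed intensity of markers per array (y axis, deposited scale) at day 21 (orange, left) and day 0 (blue, right) in the labelled perirenal depot, 12 arrays each, with the median as a bar. A few arrays of both days stand far above the rest in kidney, adrenal or muscle markers, brown fat markers spread widely on both days, and mast cell markers have a median of 5.90 at day 21 and 4.64 at day 0.

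At day 21, 252 of 13633 genes were higher than at day 0 and 206 were lower at an adjusted p under 0.05 (limma, Benjamini-Hochberg over all genes tested, two-sided). The 458 genes called are 3.36% of those tested, with 1.85% higher and 1.51% lower. The changes were small. Of the genes called, 120 differed by more than 0.25 on the log2 scale, 17 by more than 0.5 and 3 by more than 1, and the median over all genes was 0.01. All 458 had the same sign in mice of either letter. This is largely set by the choice of genes, since they were called on the change over both letters. Only 9 genes (0.066% of those tested) had day 21 and day 0 groups that did not overlap. Selected for that property after their values were seen, they were Vnn1, 9530026P05Rik, Kiss1r, Ehd3, Abhd14b, Zbtb4 and Syf2, higher at day 21, and Rnase2a and Kmt5a, lower at day 21. Without the arrays high in kidney, adrenal or muscle markers, which left 5 arrays at day 21 and 6 at day 0, 298 genes were called, 184 of them shared with the 458. Ehd3 and Abhd14b were not called in that fit.

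The genes with the largest falls had varied known roles, and the first 5 by size were Rnase2a, Saa3, Tph2, S100a8 and Ccl8. Rnase2a, an eosinophil-associated ribonuclease gene, had a lowest, median and highest intensity of 0.161, 0.186 and 0.324 at day 21, against 0.424, 0.572 and 0.927 at day 0. Every day 21 array was below every day 0 array. Its log2 change was -1.50 ± 0.18 (SE, adjusted p = 4.57e-08), a fold of 0.354. Ribonuclease genes of this family are similar in sequence, and their signals may mix. Saa3, the serum amyloid A form made in adipose tissue, ran over 1.26, 1.74 and 3.69 at day 21 and over 3.45, 3.99 and 5.51 at day 0. The groups overlapped through the highest day 21 array alone, and the gene fell by 1.19 ± 0.16 (adjusted p = 1.46e-06, 12 of 12 mice lower than the day 0 mean of their letter). S100a8, a calcium-binding protein gene of neutrophils and monocytes, ran over 0.615, 0.790 and 1.31 at day 21 and over 1.06, 1.39 and 2.11 at day 0. It fell by 0.85 ± 0.12 (adjusted p = 3.88e-06, 12 of 12 mice), with a small overlap between the groups. S100a9, whose protein pairs with that of S100a8, did not pass the test (0.07 ± 0.19, adjusted p = 0.912). Of 5 neutrophil markers tested S100a8 was the 1 called, where 3.36% of all genes were, and the list median was -0.001. Ccl8, a chemokine gene, ran over 1.07, 1.69 and 2.25 at day 21 and over 2.16, 2.66 and 3.59 at day 0. All but the highest day 21 array lay below the day 0 range, and the log2 change was -0.67 ± 0.12 (adjusted p = 0.000163).

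**Figure D2:**
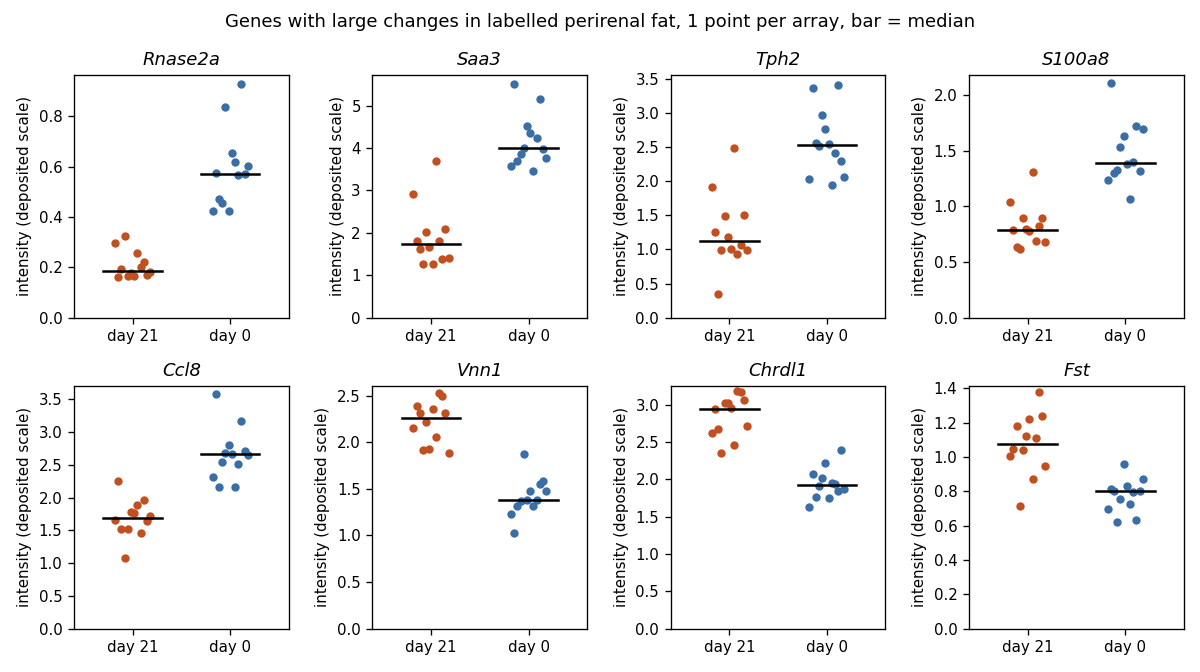
Intensity (y axis, deposited linear scale) of 8 genes on each array at day 21 (orange, left) and day 0 (blue, right), with the median as a bar, n = 12 arrays per day. Rnase2a, Saa3, Tph2, S100a8 and Ccl8 lie lower at day 21, and Vnn1, Chrdl1 and Fst lie higher.

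Tph2, which encodes the tryptophan hydroxylase known from serotonin neurons, ran over 0.352, 1.12 and 2.49 at day 21 and over 1.94, 2.53 and 3.40 at day 0. The day 21 values were the more spread, and 12 of 12 mice lay below the day 0 mean of their letter. The log2 change was -1.14 ± 0.26 (adjusted p = 0.00728). Tph1, the form known from peripheral tissues, was near the dim end of the array, with medians of 0.0671 at day 21 and 0.0543 at day 0, and it rose by 0.28 ± 0.08 (adjusted p = 0.0282). Without the arrays high in markers of neighbouring organs Tph1 did not pass the test. Other genes among the 12 with the largest fall were Atp1a4, a sodium pump subunit gene (-0.66 ± 0.19), Acoxl, an acyl-CoA oxidase-like gene (-0.64 ± 0.09), Ncan, a proteoglycan gene known from brain (-0.63 ± 0.14), Plppr4 (-0.62 ± 0.11), Wfdc21 (-0.60 ± 0.13) and Olr1, a receptor gene for oxidised lipoprotein (-0.56 ± 0.16). Mup3, a major urinary protein gene, differed by -0.60 ± 0.16 (adjusted p = 0.0274), by -0.09 in J mice and by -1.11 in N mice. Its highest day 0 array stood at 0.679 against a day 0 median of 0.131, and Mup genes have near-identical copies whose signals may mix. Liver marker sums were highest on the day 0 arrays of mice N74 and N50, at 21.2 and 19.6. The part of liver markers in the change of Mup3 was not tested. Ncan and Mup3 did not pass the test without the arrays high in neighbouring organ markers.

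Genes of the acute phase and of signalling by interleukin 6 type cytokines, a list chosen after values were seen, counted 7 of 22 lower and 2 higher, against 1.51% and 1.85% of all genes. Because of that choice, these shares describe the list and do not test it. The 22 changes lay on both sides of 0, 12 below and 10 above, with a median of -0.07 against 0.01 over all genes. Lrg1, a secreted glycoprotein gene of the acute phase, ran over 4.02, 4.94 and 6.78 at day 21 and over 6.33, 7.02 and 8.59 at day 0, and fell by 0.48 ± 0.07 (adjusted p = 8.49e-06, 12 of 12 mice). Serpina3n, a protease inhibitor gene, fell by 0.31 ± 0.07 (adjusted p = 0.00875), and Saa2, another serum amyloid A gene, by 0.25 ± 0.06 at a low level. Hp, the haptoglobin gene, fell by 0.07 ± 0.02, with a lowest array of 18.7 at day 21 and of 20.6 at day 0. Hpx, the hemopexin gene, fell by 0.43 ± 0.13 (adjusted p = 0.0398), with medians of 0.0655 at day 21 and 0.0721 at day 0, close to the dim threshold, and a single highest day 0 array at 0.267. The change of Hpx was -0.20 in J mice and -0.65 in N mice, and it stayed called in 12 of 24 fits that each left out 1 array. Hpx is also a liver marker. Of 8 liver markers tested 7 had changes below 0 and Hpx was the 1 called, with a median of -0.31, and Alb, the albumin gene, differed by -0.53 ± 0.24 (adjusted p = 0.239). The part of liver markers in the acute phase values was not tested. The 2 genes that rose were Cp, the ceruloplasmin gene (0.16 ± 0.05), and Il6st, the shared receptor chain of interleukin 6 type cytokines (0.11 ± 0.02, adjusted p = 0.000981). Lcn2, the lipocalin 2 gene, differed by -0.32 ± 0.13 and did not pass the test (adjusted p = 0.157). Without the arrays high in neighbouring organ markers 5 members were lower and 1 higher, with Hp, Hpx and Cp no longer called.

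The 200 bases before the RefSeq transcription start of Saa3 are shown because its fall was the largest of the acute phase genes and this window holds 1 C/EBP-type motif, in capitals (letters TTGCNNAA, both strands). C/EBP factors are known to drive acute phase genes. The window lies at chr7:46715677-46715876 on the minus strand of GRCm38.p6.
Saa3: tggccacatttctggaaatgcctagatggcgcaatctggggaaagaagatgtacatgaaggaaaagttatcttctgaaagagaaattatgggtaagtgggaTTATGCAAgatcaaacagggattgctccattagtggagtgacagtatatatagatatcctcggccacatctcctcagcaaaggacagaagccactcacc
Among RefSeq promoters of the same length, 1 per gene, 2019 of 27025 (7.47%) hold this motif, as do 3 of the 6 lower acute phase genes with a promoter in the table and 5 of the 19 tested. The STAT-type motif (letters TTCNNNGAA, both strands), searched because STAT3 carries the interleukin 6 signal, is held by 5.62% of all promoters, by 3 of the 19 tested and by 0 of the 6 lower genes, Saa3 included. A match is a string of letters and says nothing about binding.

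Genes of the cell cycle fell together. Of 28 genes listed, 24 were on the array and 22 passed the filter on dim signals, and of these 12 were lower and 0 higher, against 1.51% lower over all genes. All 22 changes were below 0, with a median of -0.24 against 0.01 over all genes. Tpx2, a spindle assembly factor gene, ran over 0.218, 0.259 and 0.318 at day 21 and over 0.292, 0.356 and 0.397 at day 0, and fell by 0.43 ± 0.08 (adjusted p = 0.00114, 12 of 12 mice). Prc1, a gene of the cytokinesis midzone, ran over 0.314, 0.386 and 0.485 at day 21 and over 0.417, 0.506 and 0.598 at day 0, and fell by 0.38 ± 0.09 (adjusted p = 0.0104, 12 of 12 mice). In both genes the groups overlapped at their edges.

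The other genes of the list that fell, named after their values were seen except for Bub1b and Ccne1, were Bub1 (-0.45 ± 0.12) and Bub1b (-0.24 ± 0.06) of the spindle checkpoint, the kinase genes Plk1 (-0.23 ± 0.07) and Aurkb (-0.29 ± 0.08), and Kif11, a spindle motor gene (-0.35 ± 0.10). Ube2c and Cdc20, which serve the destruction of mitotic cyclins, fell by 0.35 ± 0.09 and 0.24 ± 0.06. Mki67, the proliferation marker Ki-67, fell by 0.38 ± 0.11, Top2a, a DNA topoisomerase gene, by 0.35 ± 0.10, and Ccne1, a cyclin gene of the entry into DNA synthesis, by 0.20 ± 0.05. Cdk1, the mitotic kinase gene, differed by -0.24 ± 0.10 and did not pass the test (adjusted p = 0.224). Leaving out single arrays gave 6 to 14 members lower, with the fewest without day 0 mouse N45. Without the arrays high in neighbouring organ markers 0 of 22 were called, while their median change was -0.25. The part of those arrays in the calls was not tested further.

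Promoter windows of 3 of the genes that fell are shown because mitotic genes are known to share 2 motifs, the CCAAT box (CCAAT) and the cell cycle genes homology region (CHR, TTTGAA). Capitals mark both motifs on either strand within 200 bases before the start, and overlapping matches are joined. The windows lie at chr2:164769729-164769928 on the plus strand for Ube2c, and on the minus strand at chr11:99024190-99024389 for Top2a and chr7:135716380-135716579 for Mki67, all in GRCm38.p6.
Ube2c: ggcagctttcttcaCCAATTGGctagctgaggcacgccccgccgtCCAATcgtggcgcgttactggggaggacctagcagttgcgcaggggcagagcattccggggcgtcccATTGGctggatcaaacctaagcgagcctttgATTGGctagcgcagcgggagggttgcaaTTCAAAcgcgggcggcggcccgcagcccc
Top2a: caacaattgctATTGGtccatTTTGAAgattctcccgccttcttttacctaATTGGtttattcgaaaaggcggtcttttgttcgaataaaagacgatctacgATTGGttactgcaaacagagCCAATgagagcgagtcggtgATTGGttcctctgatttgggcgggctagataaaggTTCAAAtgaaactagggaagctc
Mki67: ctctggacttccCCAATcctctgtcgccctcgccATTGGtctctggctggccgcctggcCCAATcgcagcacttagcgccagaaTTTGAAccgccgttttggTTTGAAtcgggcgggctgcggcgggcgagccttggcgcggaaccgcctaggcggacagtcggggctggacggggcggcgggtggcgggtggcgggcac
Of the 12 lower genes, 10 had a promoter in the RefSeq table. Among them 9 held a CCAAT box and 5 a CHR, against 8112 and 3444 of 27025 promoters (12.7% for the CHR). Of all 18 cell cycle genes tested that had a promoter there, 15 held a CCAAT box and 7 a CHR.

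**Figure D3:**
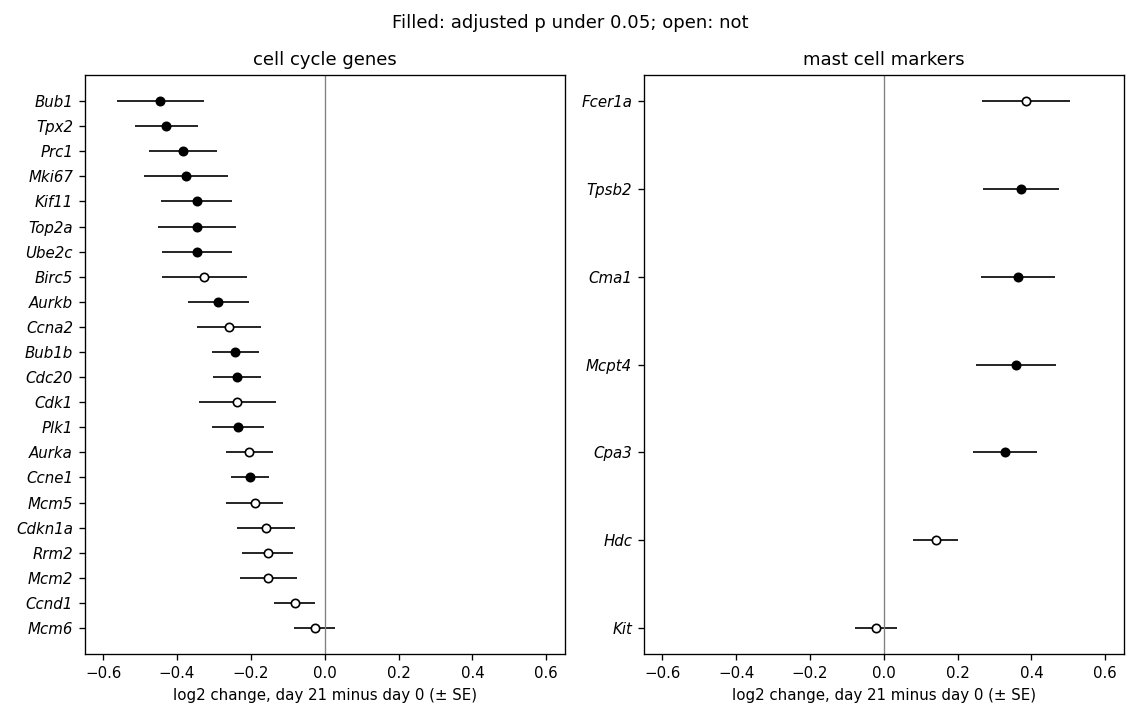
Log2 change of each gene at day 21 relative to day 0 (x axis, ± SE of the limma fit) for 22 cell cycle genes (left) and 7 mast cell markers (right), with filled points for an adjusted p under 0.05. All cell cycle genes lie below 0 and 12 are filled, while 6 of 7 mast cell markers lie above 0 and 4 are filled.

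Mast cell markers were higher at day 21, with 4 of 7 tested called and a median change of 0.36, against 1.85% higher over all genes. Cpa3, the mast cell carboxypeptidase gene, ran over 0.587, 0.778 and 0.993 at day 21 and over 0.459, 0.635 and 0.703 at day 0, and rose by 0.33 ± 0.09 (adjusted p = 0.0235, 11 of 12 mice). The groups overlapped in part. The protease genes Cma1, Mcpt4 and Tpsb2 rose by 0.36 ± 0.10, 0.36 ± 0.11 and 0.37 ± 0.10. Kit, the stem cell factor receptor gene, differed by -0.02 ± 0.06, and Hdc, which makes histamine, by 0.14 ± 0.06, and Fcer1a, a subunit of the IgE receptor, by 0.38 ± 0.12 (adjusted p = 0.0509), and none of the 3 passed the test. The sum of 8 measured markers was lowest on the day 0 array of mouse J17, at 2.99, which was also the array highest in muscle markers. Leaving out single arrays gave 0 to 5 members higher, and 0 without J17. Without all arrays high in neighbouring organ markers 4 of 7 were higher, with a median of 0.50. Macrophage markers had 0 of 13 called, with changes between 0.03 and 0.09. T and NK cell markers had 0 of 11 called and B cell markers 0 of 6. With 3.36% called over all genes, counts of 0 in these short lists do not set them apart from other genes.

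Among genes that rose, several encode enzymes that act on drugs and other small molecules. Vnn1, the pantetheinase vanin 1, had a lowest, median and highest intensity of 1.88, 2.26 and 2.53 at day 21, against 1.03, 1.38 and 1.87 at day 0. The ranges lay next to each other without overlapping, and the gene rose by 0.65 ± 0.11 (adjusted p = 0.000156, 12 of 12 mice), a fold of 1.57. Its relative Vnn3 rose by 0.38 ± 0.08. A list of drug and xenobiotic metabolism, chosen after values were seen, had 8 of 23 genes higher and 0 lower, against 1.85% and 1.51% of all genes, with a median of 0.10 against 0.01. A list chosen in this way tends to hold called genes, so these shares describe the list and do not test it. Ces1f, a carboxylesterase gene, rose by 0.38 ± 0.06 (adjusted p = 8.68e-05), Inmt, an amine methyltransferase gene, by 0.38 ± 0.07, the glutathione transferase genes Gstt1 and Gstt2 by 0.29 ± 0.06 and 0.22 ± 0.05, and the cytochrome genes Cyp2d22 and Cyp4b1 by 0.27 ± 0.05 and 0.20 ± 0.06. Without the arrays high in neighbouring organ markers 6 of the 23 were higher, and Cyp2d22 and Cyp4b1 were not among them.

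Chrdl1 and Fst, which encode secreted antagonists of growth factors of the transforming growth factor family, were also higher. Chrdl1, which binds bone morphogenetic proteins, ran over 2.35, 2.94 and 3.18 at day 21 and over 1.63, 1.92 and 2.39 at day 0, and rose by 0.55 ± 0.11 (adjusted p = 0.00114, 12 of 12 mice). Fst, the follistatin gene, whose protein binds activins, ran over 0.714, 1.08 and 1.38 at day 21 and over 0.619, 0.799 and 0.958 at day 0, and rose by 0.46 ± 0.07 (adjusted p = 6.36e-05, 11 of 12 mice). Chrdl1 overlapped by its lowest day 21 array and Fst over a wider range. The activin subunit genes Inhba and Inhbb differed by 0.04 ± 0.06 and -0.01 ± 0.11, without passing the test. In the list of activin and bone morphogenetic protein genes, also chosen after values were seen, Chrdl1 and Fst were the 2 called of 19, both higher, against 1.85% higher over all genes. Because the list was chosen in this way, its share is no test of the list. The secreted antagonist gene Chrd and the follistatin-like gene Fstl1 differed by 0.06 ± 0.04 and -0.04 ± 0.07 and did not pass the test.

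Other genes among the 12 with the largest rise were 9530026P05Rik (0.58 ± 0.08), St6galnac5, a sialyltransferase gene (0.56 ± 0.13), Eci3, an enoyl-CoA isomerase gene (0.44 ± 0.10), Ppl, a periplakin gene of cell junctions (0.41 ± 0.08), Scin, an actin-severing protein gene (0.39 ± 0.10), Thbs2, a thrombospondin gene (0.39 ± 0.12), and Kiss1r, the kisspeptin receptor gene (0.38 ± 0.09). Eci3 and Thbs2 did not pass the test without the arrays high in neighbouring organ markers. Kmt5a, a histone methyltransferase gene, ran over 5.13, 5.40 and 5.73 at day 21 and over 5.76, 6.10 and 6.31 at day 0. Its change of -0.17 ± 0.02 was small and its groups did not overlap.

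Of 32 matrix genes tested, 3 were lower and 1 higher, against 1.51% and 1.85% of all genes, the 1 higher being near that share, and 26 changes lay below 0, with a median of -0.09 against 0.01 over all genes. Timp1, an inhibitor of metalloproteinases, fell by 0.45 ± 0.11 (adjusted p = 0.0151), Col12a1, a fibril-associated collagen gene, by 0.28 ± 0.08 and Tnc, the tenascin C gene, by 0.23 ± 0.06. Dcn, the decorin gene, rose by 0.13 ± 0.03 (adjusted p = 0.0085). The fibrillar collagen genes Col1a1 and Col3a1 differed by -0.12 ± 0.09 and -0.05 ± 0.07 and did not pass the test. Pdgfra, a receptor gene of fibroblast progenitors, ran over 3.58, 4.15 and 4.50 at day 21 and over 3.10, 3.56 and 3.73 at day 0, and rose by 0.21 ± 0.04 (adjusted p = 0.0025, 12 of 12 mice). Dcn and Pdgfra were 2 of 8 progenitor markers, and the other 6 were not called. Tek, an endothelial receptor gene, rose by 0.12 ± 0.03, and Igfbp4 and Igfbp6, which bind insulin-like growth factors, by 0.13 ± 0.03 and 0.19 ± 0.06.

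No gene passed the test in most lists of triglyceride storage and release, where 3.36% of all genes were called. None of 15 genes of triglyceride assembly, 10 of lipolysis, 8 of the lipid droplet coat, 20 of fatty acid oxidation, 14 of brown fat thermogenesis or 31 subunits of oxidative phosphorylation was called. The lipolysis list held 15 genes, and Lipe and Adrb3 were not tested. The coat list held 11, and Plin1 was not tested. Changes lay below 0 for 19 of 20 genes of fatty acid oxidation, 11 of 14 of thermogenesis and 23 of 31 of oxidative phosphorylation. The list medians were -0.04, -0.07 and -0.01. Over all genes tested, 6325 of 13633 changes lay below 0. Sums of brown adipocyte markers, which varied widely between arrays, had medians of 34.3 at day 21 and 38.3 at day 0. Their part in these signs was not tested. Triglyceride assembly had 10 of 15 below 0, lipolysis 5 of 10 and the coat 5 of 8. The largest change in triglyceride assembly was that of Mogat2, an acyltransferase gene (-0.38 ± 0.12, adjusted p = 0.0623), which passed the test in 3 of 24 fits that each left out 1 array, as did Lpin3, a phosphatidate phosphatase gene (-0.20 ± 0.06, adjusted p = 0.0659). The counts that follow rest on 1 to 3 genes, and that of fatty acid synthesis is near the 3.36% called over all genes. In fatty acid synthesis 1 of 21 was lower, Slc25a1, the mitochondrial citrate carrier gene (-0.29 ± 0.06, adjusted p = 0.00139, 12 of 12 mice). In fatty acid uptake 1 of 11 was lower, Vldlr, a lipoprotein receptor gene (-0.16 ± 0.04). Of 17 cholesterol genes Nsdhl and Tm7sf2 fell by 0.22 ± 0.06 and 0.19 ± 0.05, and Fdft1, the squalene synthase gene, rose by 0.19 ± 0.05. Of 24 genes of insulin signalling and glucose use Insr, the insulin receptor gene, rose by 0.08 ± 0.02, while Gys2, a glycogen synthase gene, and Ldha, lactate dehydrogenase A, fell by 0.53 ± 0.15 and 0.06 ± 0.02. Gys2 stayed called in 11 and Ldha in 14 of 24 fits that each left out 1 array, and 0 of the 24 genes were lower without day 0 mouse J17. Tpi1, a glycolytic enzyme gene, fell by 0.11 ± 0.02 (adjusted p = 3.11e-05). Cfd, the adipsin gene of adipocytes, rose by 0.10 ± 0.02 (adjusted p = 0.00114), Ebf1, an adipocyte transcription factor gene, by 0.10 ± 0.03, and Gpx3, a secreted glutathione peroxidase gene, by 0.21 ± 0.05. Mthfd2, of mitochondrial folate metabolism, fell by 0.32 ± 0.06 and Prdx6, a peroxiredoxin gene, by 0.07 ± 0.02. Cfd, Gpx3, Igfbp6, Insr, Tek, Tnc and Fdft1 did not pass the test without the arrays high in neighbouring organ markers.

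A set of 34 key genes was chosen with earlier results of these data known. Of these, 31 were tested and Tph2 was the only one called, a share near the 3.36% over all genes. The log2 changes of the other 30 lay between -0.27 and 0.20. Lep, the leptin gene, had a lowest, median and highest intensity of 11.7, 15.1 and 16 at day 21, against 14.0, 15.3 and 16.1 at day 0. The groups overlapped apart from 1 low day 21 array, and the change of -0.05 ± 0.12 did not pass the test (adjusted p = 0.909). Mest, a gene that rises in expanding fat, ran over 3.61, 6.39 and 7.53 at day 21 and over 6.79, 7.71 and 8.20 at day 0. Its groups overlapped and its change of -0.27 ± 0.10 did not pass (adjusted p = 0.156). Adipoq, the adiponectin gene, differed by 0.04 ± 0.01 (adjusted p = 0.0585), Fasn, the fatty acid synthase gene, by -0.08 ± 0.04, Ccl2, a monocyte chemokine gene, by -0.14 ± 0.11, Adgre1, a macrophage marker, by 0.05 ± 0.11, and Ucp1 by -0.08 ± 0.51. Intensities reached 29.6, and standard errors were smaller for bright genes, with a median of 0.02 for the 479 genes with a mean over 8 and of 0.04 for the rest. Whether the scale is compressed at its top was not tested. No gene was called among 16 lipid-associated macrophage genes, 11 of antigen presentation, 16 of the interferon response, 18 of the clock, 18 chaperones of the endoplasmic reticulum, 14 heat shock genes, 15 of the glucocorticoid response and 22 lysosomal genes. With 3.36% called over all genes, a count of 0 in lists of this size does not set them apart from other genes.

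**Figure D4:**
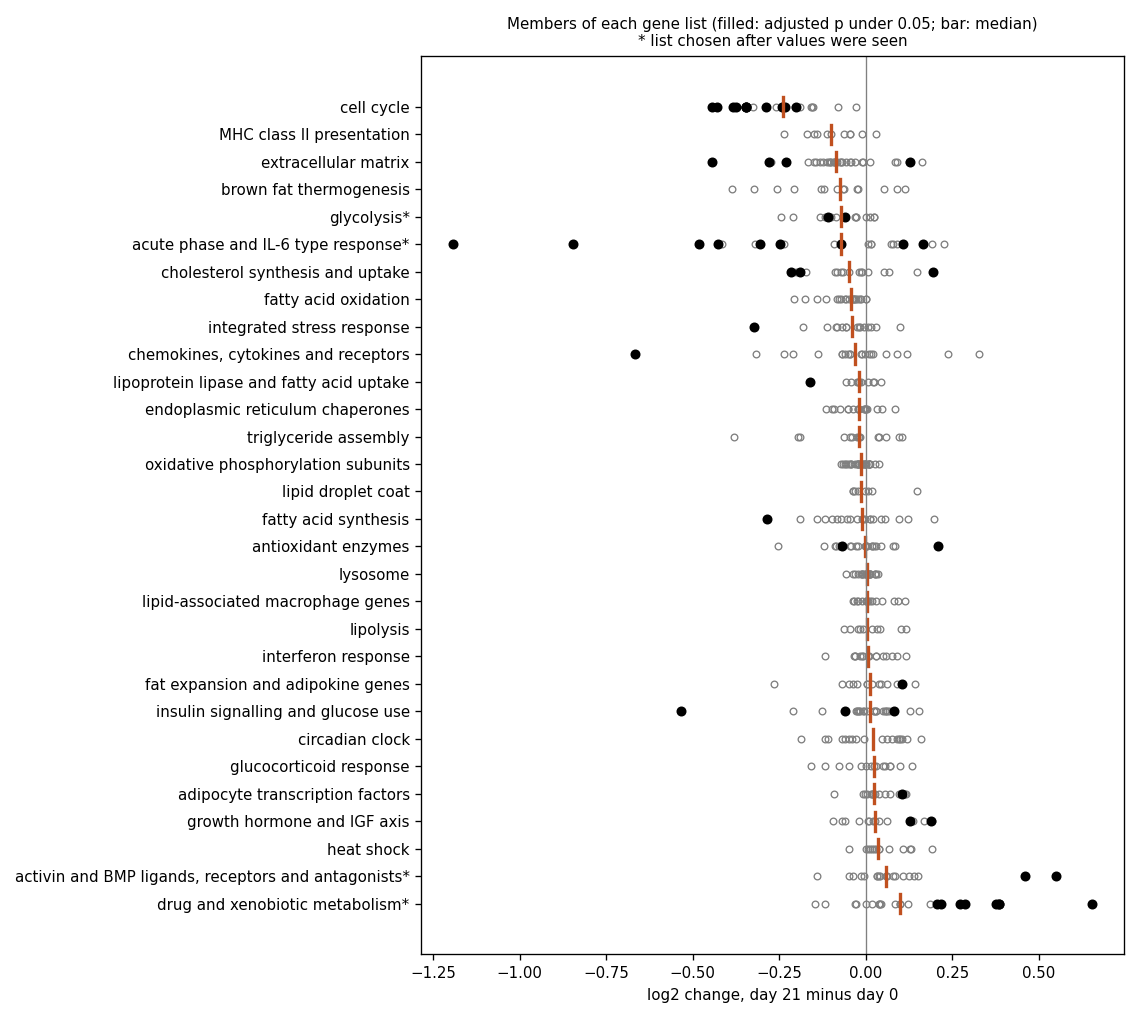
Log2 change at day 21 relative to day 0 (x axis) of each gene tested, by gene list (y axis), with filled points for an adjusted p under 0.05 and a bar at the list median. The cell cycle list lies wholly below 0. Most metabolic lists centre near 0, with 19 of 20 fatty acid oxidation genes below it, against 6325 of 13633 genes over all tested. The lists marked with an asterisk were chosen after values were seen.

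Day 21 was also set against its neighbours in time, contrasts whose differences do not use the day 0 means. Against day 14 (10 arrays), 0 of 13633 genes were called (0%), with 1147 at an unadjusted p under 0.05. At day 42 relative to day 21, 16 genes (0.117%) were called, 7 higher and 9 lower, with 2241 at an unadjusted p under 0.05. Tph2 was lower at day 42 by a further 1.22 ± 0.26 (adjusted p = 0.0216). Mogat2, of triglyceride assembly, differed by -0.55 ± 0.12, Thbs1, a thrombospondin gene, by -0.49 ± 0.11, Lbp, the lipopolysaccharide-binding protein gene, by -0.43 ± 0.10, and Ltc4s, the leukotriene C4 synthase gene, by -0.37 ± 0.08. The 5 highest were Igtp, an interferon-induced GTPase gene (0.33 ± 0.07), Asns, the asparagine synthetase gene (0.24 ± 0.05), Cnst (0.21 ± 0.05), Mllt1 (0.18 ± 0.04) and Vps13a (0.18 ± 0.04). Fitted on the arrays of the 2 days alone, 1 gene was called.

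The day 42 and day 21 contrasts with day 0 share the day 0 arrays, so their values are given side by side. At day 42, 22% of all genes were called against day 0. The cell cycle list had 18 of 22 lower at day 42 and 12 lower at day 21, and the matrix list had 25 of 32 lower at day 42 and 3 at day 21. Over days 0, 1, 3, 7, 14, 21, 42 and 60, the median intensity of Saa3 was 3.99, 4.26, 3.89, 2.45, 2.21, 1.74, 1.31 and 1.18. Values were near the day 0 level until day 3 and lower at each later day. The medians of Rnase2a were 0.572, 0.316, 0.266, 0.278, 0.196, 0.186, 0.162 and 0.151 over the same days, with the largest step between day 0 and day 1. Those of Tph2 were 2.53, 2.69, 2.48, 1.74, 1.75, 1.12, 0.508 and 0.576. Vnn1 stood at 1.38, 2.26, 2.04, 2.22, 2.17, 2.26, 1.99 and 1.85, and was near its day 21 median from day 1. All day 1 arrays came from J mice and all day 60 arrays from N mice.

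**Figure D5:**
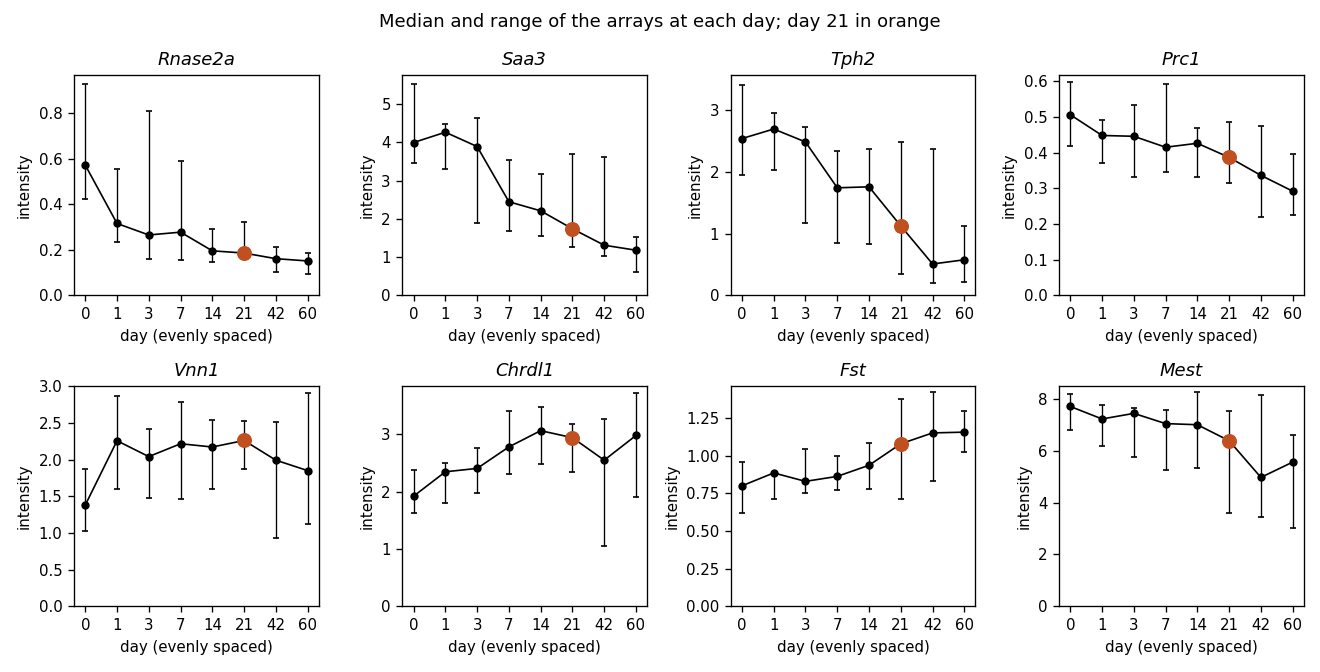
Median intensity (y axis) with the lowest and highest array at each day of restriction (x axis, days evenly spaced) for 8 genes in the labelled perirenal depot, with day 21 in orange. Saa3 and Tph2 decline from day 7, Rnase2a is lower from day 1, and the Mest median is 7.71 on day 0, 6.39 on day 21 and 4.98 on day 42.

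The change at day 21 was compared with that in the other depots by testing the difference between the changes. Neither the depot labelled mesenteric (0 of 13159 genes), nor that labelled perigonadal (0 of 13217), nor that labelled subcutaneous (0 of 13053) gave a gene whose change differed, each 0%, with limma. At an unadjusted p under 0.05 the counts were 464, 623 and 553. In the same fits the change in the depot labelled perirenal alone gave 365, 533 and 57 genes called. The change in the other depot alone gave 2017 for mesenteric, 2079 for perigonadal and 105 for subcutaneous. The fit with the depot labelled subcutaneous thus had the least power, and counts of 0 do not show that the depots changed alike. The mice of the depots are the same animals. The animal was then taken as a replicate block, by fitting the difference between the depots within each animal. With this block, the counts were 0 for the depot labelled mesenteric, 5 for that labelled perigonadal and 0 for that labelled subcutaneous. The 5 genes, named after their values were seen, were Ces1f, Agpat2, Ckap2, Pick1 and 2010003K11Rik. Ces1f differed between day 21 and day 0 by 0.38 ± 0.06 in the depot labelled perirenal and by 0.06 ± 0.06 in that labelled perigonadal, and the blocked difference of 0.34 had an adjusted p of 0.0192. Agpat2, an enzyme gene of triglyceride assembly, differed between day 21 and day 0 by -0.02 ± 0.03 in the depot labelled perirenal and by -0.19 ± 0.03 in that labelled perigonadal (blocked adjusted p = 0.02). For Saa3 the log2 difference was -1.19 in the depot labelled perirenal, against -1.25, -1.22 and -0.61 in those labelled mesenteric, perigonadal and subcutaneous, and for Rnase2a it was -1.50 against -1.41, -1.58 and -1.28. Prc1 gave -0.38 in the depot labelled perirenal against -0.79 in that labelled perigonadal, a difference of 0.41 ± 0.13 that did not pass the test (adjusted p = 0.767, and 0.18 with the block).

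The change at day 21 was also compared between letters. With limma, 0 of 13633 genes (0%) had a change that differed between N and J mice, with 367 at an unadjusted p under 0.05. Fitted by letter, 2 genes were called in J mice and 9 in N mice, with 6 mice per day in each.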

How the data were processed

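Per the labels' protocols, biotin-labelled total RNA was hybridised to Affymetrix arrays. The values deposited by the authors are linear intensities for 32640 probe sets, and their summarisation and normalisation are not given in the sources used here. Array means lay between 0.976 and 0.998, so only relative levels can be read, and levels of different genes cannot be compared. The number of arrays limits the precision.

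A gene symbol was available for 25508 probe sets, updated through the RefSeq table of GRCm38.p6. The probe set with the highest mean stood for each of 16643 genes, and genes whose mean lay below the 25th percentile, an intensity of 0.0581, were left out. Intensities were taken to log2 with no offset and fitted over all days of the depot in R 4.3.3 with the limma package, version 3.58.1, using its trend and robust options and the letter of the animal ID as a term. Scripts were tested on simulated data. P-values are two-sided and adjusted by the Benjamini-Hochberg method over all genes tested. Numbers of mice are relative to the day 0 mean of their own letter.

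The gene lists and tests were chosen with earlier results of these data known. Named were the 12 genes with the largest rise and fall among those called, up to 4 called members of each list, a set of key genes, and 5 genes each way in other contrasts. Further genes were named after their values were seen. Animal IDs are shared between depots, so arrays were paired by animal for the block. The block fit used the perirenal minus other depot difference of each animal, and left out animals without an array in both depots. The median residual correlation of 78 pairs with the depot labelled mesenteric was 0.160, of 74 with perigonadal 0.0950 and of 77 with subcutaneous 0.0813. Alternatives covered the arrays and letters used, filter, normalisation, offset, probe set choice, array weights, marker covariates and single arrays left out.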

Additional observations from a re-analysis of the deposited data

Results flagged for a closer look

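Of 39 groups of 4 to 10 arrays tested for the genes followed over time, 3 held an array that stood apart from the rest by Dixon's criterion. Chance alone picks out about 1 in 20 groups. Ccl8 stood at 1.16 on the day 14 array of mouse J57, below the other day 14 arrays. Fst stood at 0.7102 on the day 1 array of mouse J15, below the other day 1 arrays. S100a8 stood at 1.10 on the day 60 array of mouse N59, above the other day 60 arrays. Day 21 and day 0, with 12 arrays each, were too large for this criterion and were not tested.

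With the animal as a block, the day 21 change of 5 genes differed between the depots labelled perirenal and perigonadal, all with a higher change in the depot labelled perirenal. Ckap2, a gene of the mitotic spindle, differed between day 21 and day 0 by -0.25 in the depot labelled perirenal and by -0.67 in that labelled perigonadal (blocked adjusted p = 0.0318). Pick1 gave -0.04 and -0.23 (blocked adjusted p = 0.026), and 2010003K11Rik gave -0.21 and -0.65 (blocked adjusted p = 0.0192), in the same order of depots.

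Among probe sets with no gene symbol in the annotation used, 54 of 3780 tested were called at day 21 relative to day 0, of which 39 were higher and 15 lower (limma, Benjamini-Hochberg).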

How the results depend on the processing

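The 458 genes called at day 21 became 2 when fitted on J mice and 9 when fitted on N mice, 1466 with array weights, 1084 with 7 marker sums as covariates and 756 with the brown fat marker sum as covariate. Without the arrays high in kidney, adrenal or muscle markers, an alternative with fewer arrays chosen after seeing the data, 298 were called. Leaving out single arrays gave 246 to 576. The count fell by over 1.5 times without day 21 mice J10 (246), N11 (273) or N26 (296) and without day 0 mice J53 (268) or N30 (279). The remaining alternatives gave 406 to 573. Of 107 named genes called, 0 reversed under any alternative run, while 105 lost the call in the fit on J mice, 100 in that on N mice and 50 without the arrays high in neighbouring organ markers. The alternatives reuse the arrays that gave the calls, which makes a reversal unlikely. The 16 genes called at day 42 relative to day 21 became 1 on the arrays of the 2 days alone and 33 after quantile normalization. Paired by animal as a replicate block, the depot difference gave 5 genes for the depot labelled perigonadal in place of 0, and changed no count for the other depots. With no filter on dim probe sets, the depot labelled subcutaneous gave 1 gene in place of 0. The cause of these shifts was not tested. The fits on the letters alone held fewer arrays. Dim genes such as Tph1 and Hpx lie close to the filter.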

Other observations

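Single called genes outside the lists, picked after their values were seen and not to be read as groups, are given as values of the day 21 minus day 0 log2 change with SE. Single genes of mitosis that were lower were Sgo2a, a protector of centromere cohesion (-0.45 ± 0.10, adjusted p = 0.00573), Pbk, a mitotic kinase gene (-0.43 ± 0.10, adjusted p = 0.00756), and Kif18b, a kinesin gene (-0.32 ± 0.08, adjusted p = 0.0151). Pbk and Kif18b did not pass the test without the arrays high in kidney, adrenal or muscle markers, and Sgo2a did. Single genes known from myeloid cells that were lower were Arg1, an arginase gene (-0.45 ± 0.11, adjusted p = 0.00778), Cd209c, a lectin gene (-0.31 ± 0.07, adjusted p = 0.00742), and Mgl2, another lectin gene (-0.27 ± 0.07, adjusted p = 0.0297). Arg1 had medians of 0.136 at day 21 and 0.183 at day 0, with a highest day 0 array at 0.324. The part of liver markers in the change of Arg1 was not tested. Ear2, an eosinophil-associated ribonuclease gene, was lower by a log2 change of -0.37 ± 0.11 (adjusted p = 0.0461). It did not pass without the arrays high in kidney, adrenal or muscle markers. The macrophage marker list did not move that way, with all 13 changes above 0 and 0 called. Of 16 lipid-associated macrophage genes 0 were called, where 3.36% of all genes were.

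Other single genes with small rises were Snrnp200 (0.10 ± 0.02, adjusted p = 0.00362) and Prpf8 (0.08 ± 0.02, adjusted p = 0.00324), both of the spliceosome core. Ttc21b (0.15 ± 0.04, adjusted p = 0.0311) and Invs (0.14 ± 0.04, adjusted p = 0.0282), both known from cilia, were also higher. Prpf8 did not pass the test without the arrays high in neighbouring organ markers.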
